A study of Homo sapiens with 30 samples.

Results

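Palmul-tang is a herbal formula of traditional Korean medicine, and its hot water extract was given to SW1783 cells at a high dose of 500 µg/mL and a low dose of 20 µg/mL. These 2 groups, chosen by the treatment and dose in the sample titles, make up 6 of the 30 libraries of the series, with 3 at each dose. SW1783 is an established human astrocytoma line, and all cells were harvested after 24 h. A middle dose of 100 µg/mL (3 libraries) places the 2 ends in order. Beside them, the report uses Samul-tang water extract (1 library each at 500, 100 and 20 µg/mL), Sibjeondaebo-tang water extract (3 libraries each at 500 and 20 µg/mL) and the vehicle (3 libraries), which was 0.1% DMSO by the sample labels, while the series text gives another share. The fit of all libraries also held Sibjeondaebo-tang at 100 µg/mL (3 libraries). It also held ethanol extracts of Poria Cocos and of Atractylodis Rhizoma, with 1 library each at 500, 100 and 20 µg/mL. Palmul-tang joins the herbs of Samul-tang to those of a further formula, among them Poria and Atractylodes rhizome, and Sibjeondaebo-tang adds further herbs to Palmul-tang. No label says that libraries of a dose came from separate cultures, so the spread behind each p-value may be technical. That spread was estimated in 1 fit of all 30 libraries, not from the compared libraries alone.

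Astrocytes and cells of astrocytic tumours answer bacterial products, cytokines and tissue damage through NF-kappa B, a transcription factor held in the cytoplasm by inhibitory proteins until a signal removes them. Its targets include chemokines, adhesion molecules and its own inhibitors. Bone morphogenetic proteins (BMPs) act through receptors and SMAD proteins on another set of genes, of which the ID genes, coding for proteins that hold basic helix-loop-helix factors away from DNA, are the best known.

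The 9 Palmul-tang libraries had total counts of 23.45 to 31.15 M, of which 6.97% to 7.49% fell on mitochondrial genes. The astrocyte label was met in part. Of 16 astrocyte markers, 11 passed the filter on low counts, among them GJA1, SOX9 and VIM. SLC1A2 passed it too but reached no more than 0.396 CPM in any of the 6 libraries. GFAP, the intermediate filament of astrocytes, had between 2 and 4 counts in each of the 6 libraries. Like GFAP, AQP4, S100B, ALDH1L1 and FABP7 were too low to test. The summed level of the astrocyte list was 8203 to 8362 CPM (counts scaled to a common library total) at 500 µg/mL and 8050 to 8191 CPM at 20 µg/mL, and GLUL, glutamine synthetase, was the 1 member called, with a log2 fold change of -0.19 that lost its call without replicate 1 at 20 µg/mL (adjusted p = 0.0816). Of the immune cell list 4 of 11 genes could be tested and none was called, with AIF1, P2RY12 and TYROBP at 0 in all 6 libraries; its summed level was 170 to 185 CPM at 500 µg/mL and 160 to 174 CPM at 20 µg/mL. Of the endothelial list 4 of 7 could be tested and none was called, with a sum of 37.8 to 42.02 CPM at 500 µg/mL and 36.1 to 36.3 CPM at 20 µg/mL, and CDH5, VWF and CLDN5 at no more than 0.21 CPM. In bulk RNA, fewer cells expressing a gene and less of its RNA per cell cannot be told apart.

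At the high dose the cells held more RNA of most NF-kappa B targets tested and of single genes of complement, clotting and growth factor signalling, such as C3, F3 and INHBA. They held less RNA of the BMP targets ID1, ID2, ID3 and SMAD6 and of the selenoprotein gene SELENOW. Of 17839 genes tested, 946 (5.3%) differed between 500 and 20 µg/mL at an adjusted p under 0.05 (quasi-likelihood test of edgeR, adjusted by Benjamini-Hochberg over all genes tested, as is each adjusted p here). Higher at 500 were 505 genes (2.83%) and lower were 441 (2.47%). Most changes were small: the median size among called genes was 0.26 on the log2 scale, 153 genes reached 1.5-fold (97 higher, 56 lower), and 55 reached 2-fold (37 higher, 18 lower). The 3 libraries of one dose lay wholly above or below those of the other for 941 of the 946, and for 23.6% of all genes tested. Protein-coding genes made up 479 of the higher and 407 of the lower genes, out of 13911 tested, whereas the 869 long intergenic RNA genes tested gave 11 higher and 16 lower. The plot of fold change against level shows the called genes at low and at high levels.

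**Figure D1:**
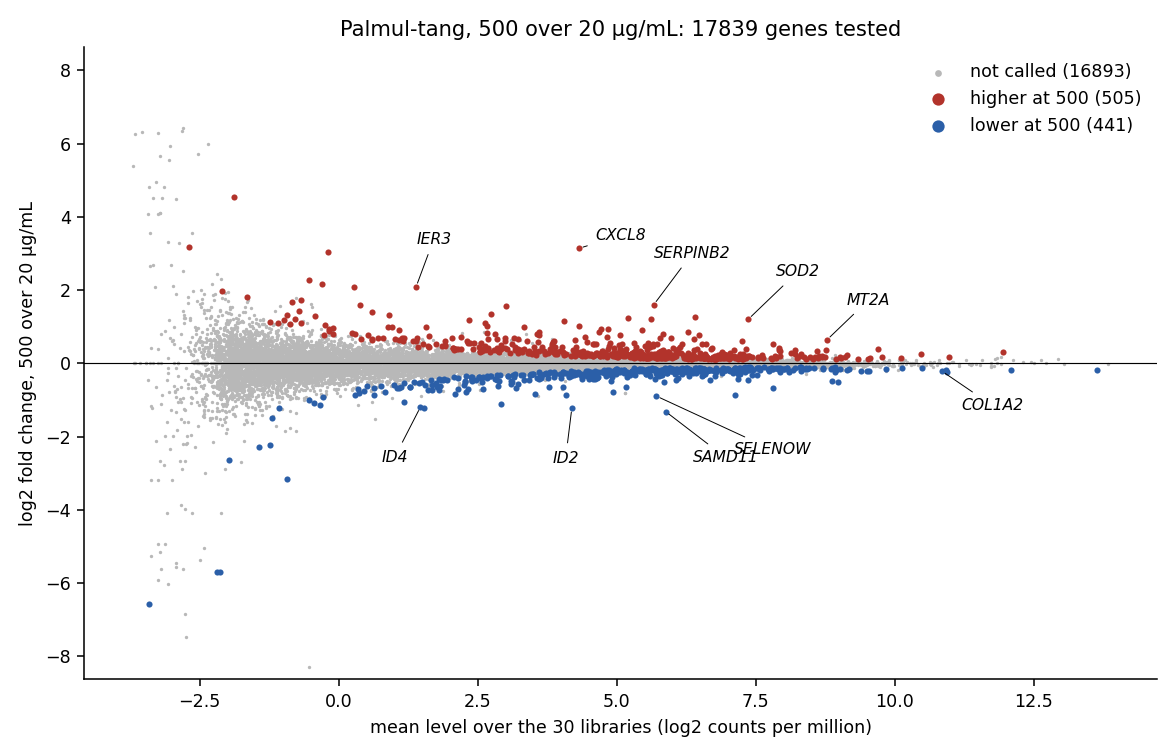
Log2 fold change of each tested gene between Palmul-tang at 500 and 20 µg/mL (vertical axis) against its mean level over the 30 libraries in log2 CPM (horizontal axis). The 505 genes called higher at 500 µg/mL are red, the 441 called lower are blue, and the 16893 not called are grey; CXCL8 has the value 3.14 and SAMD11 -1.32.

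Many NF-kappa B targets were higher at the high dose. Of 34 tested genes of the NF-kappa B and cytokine list, 32 (94.1%) were higher at 500 µg/mL and 0 were lower. Over all genes tested, 2.83% were higher and 2.47% lower, which is the background for each list count below. The list had a median log2 fold change of 1.08, against a median of 0.00 over all genes tested. It was drawn up with results of these data known, so its count is a description. CXCL8, the chemokine that draws neutrophils, had 108, 109 and 101 CPM at 500 µg/mL, against 12.9, 11.0 and 12.1 CPM at 20 µg/mL. ICAM1, the adhesion molecule that white cells bind on vessel walls and glia, had 179, 176 and 175 CPM at 500 µg/mL, against 77.8, 72.1 and 70.4 CPM at 20 µg/mL. The doses were far apart for both, with log2 fold changes of 3.14 ± 0.096 (SE) for CXCL8 and 1.27 ± 0.044 for ICAM1 (adjusted p = 2.64e-14 and 2.1e-21). LIF, a cytokine of the interleukin 6 family, had 86.2, 85.0 and 84.0 CPM at 500 µg/mL and 39.6, 32.9 and 36.7 CPM at 20 µg/mL. BIRC3, an inhibitor of cell death and a classical NF-kappa B target, had 31.6, 31.1 and 30.8 CPM at 500 µg/mL and 15.0, 13.1 and 13.6 CPM at 20 µg/mL. The log2 fold changes were 1.22 ± 0.057 for LIF and 1.16 ± 0.069 for BIRC3 (adjusted p = 5.43e-16 and 6.57e-15).

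The promoters of CXCL8 and ICAM1 are printed because both genes were at least 2-fold higher and both windows hold a kappa B-like match. They were picked for that match, so it says nothing about other higher genes. Each sequence runs 5′ to 3′ on the gene's strand from 250 bases before the annotated start to 50 bases after it (RefSeq, GRCh38.p14), and capitals mark matches to the motifs searched. The CXCL8 window is chr4:73740319-73740618 on the plus strand, with a kappa B-like match 91 bases and an AP-1 match 137 bases before the start. The ICAM1 window is chr19:10270870-10271169 on the plus strand, with a kappa B-like match 186 bases before the start.
CXCL8: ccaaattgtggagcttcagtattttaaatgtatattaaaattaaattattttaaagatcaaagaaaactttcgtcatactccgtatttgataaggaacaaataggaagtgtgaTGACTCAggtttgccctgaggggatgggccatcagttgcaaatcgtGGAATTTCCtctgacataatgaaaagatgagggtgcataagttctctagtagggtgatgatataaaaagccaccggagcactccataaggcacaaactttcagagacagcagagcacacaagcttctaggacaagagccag
ICAM1: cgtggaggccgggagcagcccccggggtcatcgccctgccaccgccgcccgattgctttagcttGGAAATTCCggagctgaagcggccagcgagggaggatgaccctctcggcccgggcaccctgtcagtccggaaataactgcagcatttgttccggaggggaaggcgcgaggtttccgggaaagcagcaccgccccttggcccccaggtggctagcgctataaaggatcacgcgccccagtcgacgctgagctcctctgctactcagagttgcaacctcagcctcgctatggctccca

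Searched on both strands were GGNNNTTCC (kappa B-like), TGANTCA (AP-1), CACGTG (E-box) and GGCGCC (a GC-rich SMAD-type motif); the first listed start of each gene was used, and a window counted once however its matches overlapped. Of the 97 genes at least 1.5-fold higher, 66 had a window in the table, and 27 of those (40.9%) held a kappa B-like match. The share was 9 of 34 windows (26.5%) for genes at least 1.5-fold lower, 2753 of 12083 (22.8%) for all tested genes and 7042 of 35116 (20.1%) for all windows of this length in the table. Over all 505 higher genes, of which 391 had a window, it was 25.6%. Over all 441 lower genes, of which 337 had a window, it was 17.8%. AP-1 matches stood in 9.1% of the windows of the 97, 11.8% of those of the 56 and 5.0% of those of tested genes. GGCGCC stood in 24.2%, 29.4% and 29.8% of the same windows. Over all higher and all lower called genes, the share with GGCGCC was 28.1% and 35.9%. A match is a run of letters and was not tested for binding.

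Among other higher genes were PTX3, CLDN1, KRTAP2-3, RRAD and FEZ1. PTX3, a secreted pattern recognition protein, had 77.8, 74.1 and 79.5 CPM at 500 µg/mL and 41.1, 38.1 and 43.4 CPM at 20 µg/mL. CLDN1, the claudin of epithelial tight junctions, had 12.2, 12.6 and 13.2 CPM at 500 µg/mL and 5.69, 5.53 and 6.63 CPM at 20 µg/mL. Both were clearly separated between doses, with log2 fold changes of 0.92 ± 0.051 and 1.09 ± 0.083 (adjusted p = 1.67e-15 and 5.34e-12). KRTAP2-3, a keratin-associated protein gene of hair with near copies on chromosome 17 that can share reads, had 8.41, 8.46 and 9.91 CPM at 500 µg/mL and 4.18, 3.46 and 4.14 CPM at 20 µg/mL. RRAD, a small GTPase of muscle and heart, and FEZ1, a kinesin adaptor of growing neurites, had log2 fold changes of 1.02 ± 0.095 and 1.02 ± 0.094. For RRAD the libraries ran from 35.4 to 38.8 CPM at 500 µg/mL and from 16.7 to 20.4 CPM at 20 µg/mL. For FEZ1 they ran from 10.7 to 11.9 CPM and from 4.53 to 6.32 CPM. CLDN1 was the 1 epithelial marker of 5 tested that was higher. KRT18, a keratin of simple epithelia whose exons overlap those of KRT8 on the opposite strand, was lower at 119, 116 and 113 CPM at 500 µg/mL, against 157, 156 and 153 CPM at 20 µg/mL (log2 fold change -0.43 ± 0.033, adjusted p = 9.22e-12). The summed epithelial list stood at 142 to 148 CPM at 500 µg/mL and 177 to 181 CPM at 20 µg/mL, with CDH1 and EPCAM at no more than 0.105 CPM in any library, and its part in the results was not tested.

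Some complement and antigen presentation genes were among the higher ones. C3, the central complement protein, had 90.2, 91.7 and 90.9 CPM at 500 µg/mL, against 53.7, 49.1 and 53.3 CPM at 20 µg/mL. CFB, the protease of the alternative pathway, whose exons overlap those of C2 and of a further annotated gene on the same strand, so that reads may be split, had 12.3, 13.3 and 13.9 CPM at 500 µg/mL and 8.15, 8.24 and 8.20 CPM at 20 µg/mL. The log2 fold changes were 0.81 ± 0.043 for C3 and 0.69 ± 0.074 for CFB (adjusted p = 3.89e-16 and 2.17e-08), with no library of one dose among those of the other. CFI, the protease that inactivates C3b, went the other way, with 19.1, 19.9 and 19.5 CPM at 500 µg/mL and 24.7, 25.7 and 26.9 CPM at 20 µg/mL (log2 fold change -0.40 ± 0.056, adjusted p = 4.27e-06). Of 16 complement genes tested, 4 (25.0%) were higher and 1 (6.2%) was lower, and the list's median was 0.00.

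Of 20 tested genes of HLA class I and antigen processing, 10 (50.0%) were higher and 0 lower, all by small amounts. The median log2 fold change was 0.15. With a library left out, 7 to 8 were higher, and HLA-F kept its call in 0 of 6 such fits (highest adjusted p = 0.205). TAP2, a subunit of the peptide transporter, had 167, 171 and 163 CPM at 500 µg/mL and 143, 146 and 142 CPM at 20 µg/mL. TAPBP, which links that transporter to class I molecules, had 360, 361 and 336 CPM at 500 µg/mL and 303, 307 and 282 CPM at 20 µg/mL. Neither overlapped between doses, and the log2 fold changes were 0.22 ± 0.034 and 0.24 ± 0.044 (adjusted p = 2.53e-05 and 0.000426). HLA-B, a class I heavy chain with close relatives that can share reads, had a log2 fold change of 0.17 ± 0.033. The interferon list gave 4 higher (10.8%) and 1 lower (2.7%) of 37, with a median of 0.09. It gave 2 higher without replicate 3 at 500 µg/mL or replicate 1 at 20 µg/mL. IRF1, a transcription factor of that response, had 36 to 38.2 CPM at 500 µg/mL and 25.05 to 27.7 CPM at 20 µg/mL (log2 fold change 0.48 ± 0.059, adjusted p = 3.02e-07).

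**Figure D2:**
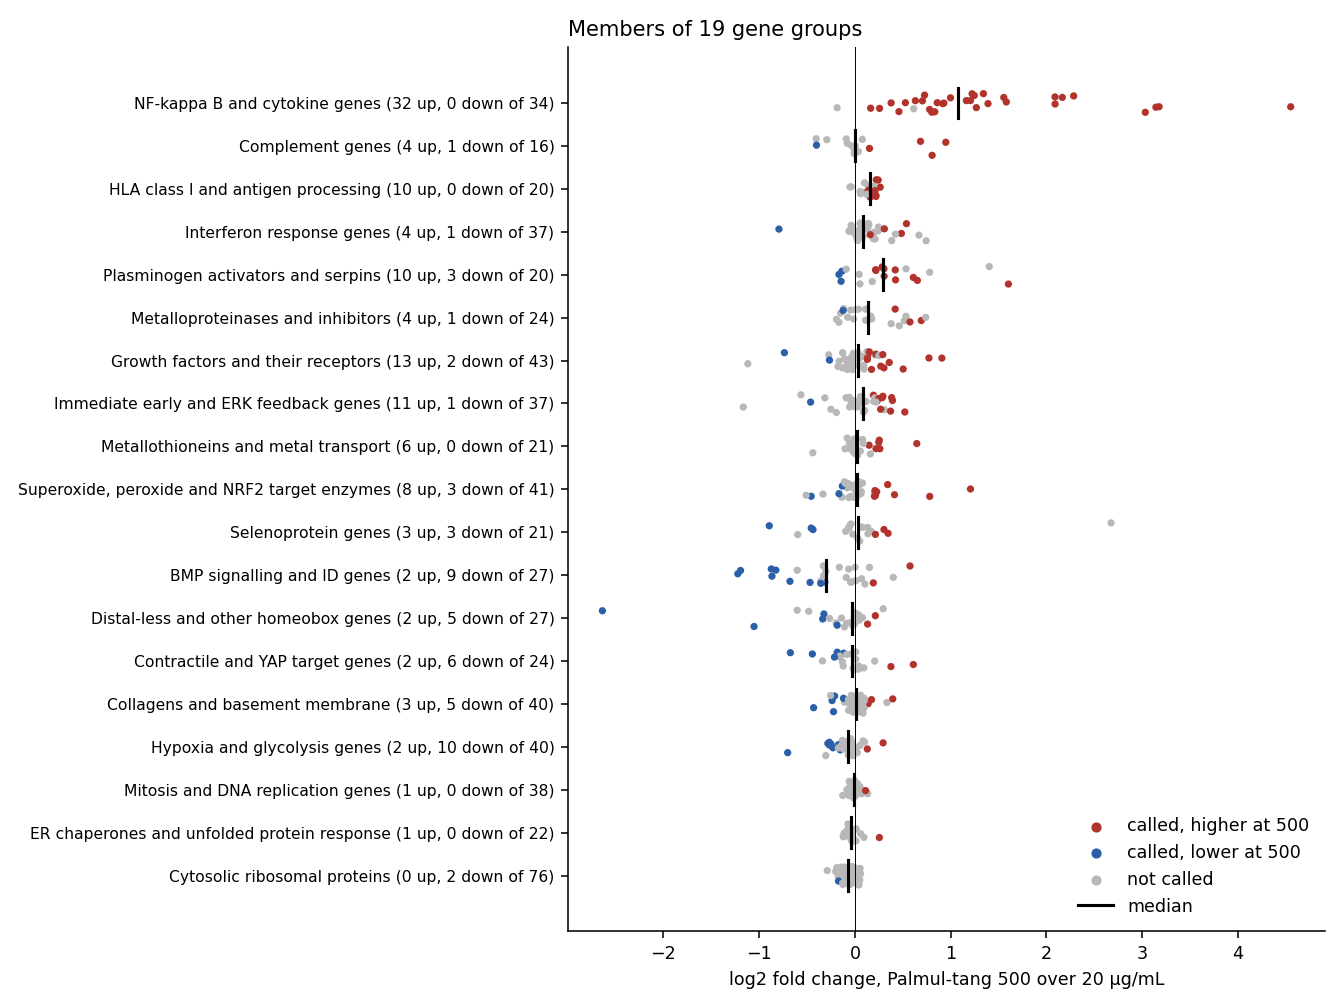
Log2 fold change between Palmul-tang at 500 and 20 µg/mL (horizontal axis) of each tested member of 19 gene groups; red members were called higher at 500 µg/mL, blue were called lower, grey were not called, and the bar is the group's median. The NF-kappa B and cytokine group stands to the right with 32 of 34 members called higher, and the BMP signalling and ID group has 9 of 27 called lower.

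Several genes that start or restrain blood clotting were higher as well. Of 20 tested genes of plasminogen activators, serpins and related factors, 10 (50.0%) were higher and 3 (15.0%) lower. The list's median log2 fold change was 0.29. F3, tissue factor, which starts coagulation, had 202, 209 and 210 CPM at 500 µg/mL and 134, 131 and 142 CPM at 20 µg/mL. TFPI2, a Kunitz-type protease inhibitor, had 131, 132 and 134 CPM at 500 µg/mL and 98.3, 98.9 and 98.3 CPM at 20 µg/mL. Both were higher in every library at the high dose, with log2 fold changes of 0.61 ± 0.037 and 0.42 ± 0.037 (adjusted p = 1.03e-14 and 1.06e-10). THBD, thrombomodulin, which turns thrombin towards an anticoagulant path, had 12.5, 12.1 and 10.3 CPM at 500 µg/mL and 7.24, 7.82 and 7.08 CPM at 20 µg/mL. The 3 lower members were SERPINH1, S100A10 and ANXA2, with log2 fold changes of -0.17, -0.14 and -0.14. SERPINH1 kept its call in all 6 fits that left out a library, S100A10 in 2 (highest adjusted p = 0.221) and ANXA2 in 4 (0.121).

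Of 24 metalloproteinases and inhibitors tested, 4 (16.7%) were higher and 1 (4.2%), MMP2, was lower. ADAMTS1, a protease that cleaves proteoglycans, had 87.5, 87.2 and 87.1 CPM at 500 µg/mL and 57.8, 50.1 and 54.0 CPM at 20 µg/mL (log2 fold change 0.69 ± 0.043, adjusted p = 2.8e-14). MMP1, interstitial collagenase, had 74.4, 81.2 and 80.1 CPM at 500 µg/mL and 59.5, 58.2 and 58.4 CPM at 20 µg/mL (log2 fold change 0.42 ± 0.046). MMP2, gelatinase A, was 326 to 352 CPM at 500 µg/mL and 370 to 378 CPM at 20 µg/mL, and its call (adjusted p = 0.0431) held in 1 of 6 fits that each left out a library (highest adjusted p = 0.27).

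Several growth factor ligands were higher. Of 43 tested genes of the growth factor list, 13 (30.2%) were higher and 2 (4.7%) lower, with a median of 0.03. When a library was left out, 9 to 10 were higher. INHBA, the subunit of activin A, had 138, 129 and 129 CPM at 500 µg/mL and 80.6, 80.6 and 70.9 CPM at 20 µg/mL. FGF7, a fibroblast growth factor that acts on epithelia, had 39.9, 40.4 and 42.1 CPM at 500 µg/mL and 31.0, 27.6 and 27.7 CPM at 20 µg/mL. Their log2 fold changes were 0.77 ± 0.075 and 0.50 ± 0.056 (adjusted p = 2.23e-06 and 3.44e-08). FGF2 reached 352 to 363 CPM at 500 µg/mL against 271 to 285 CPM at 20 µg/mL, and HGF, a ligand of the MET receptor, 36.5 to 39.4 CPM against 29.9 to 31.6 CPM. EREG, a ligand of the EGF receptor, had a low level of 2.84, 3.62 and 3.42 CPM at 500 µg/mL and 1.48, 1.93 and 1.86 CPM at 20 µg/mL. PGF, placental growth factor, was lower, with 1.85, 2.34 and 2.27 CPM at 500 µg/mL and 3.73, 3.50 and 3.58 CPM at 20 µg/mL (log2 fold change -0.74 ± 0.127, adjusted p = 0.000128).

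Of 37 immediate early and ERK feedback genes, 11 (29.7%) were higher and 1 (2.7%), EGR3, was lower, with a median of 0.09. DUSP6, a phosphatase that switches ERK off, had 33.8, 35.4 and 34.3 CPM at 500 µg/mL and 25.8, 26.6 and 27.0 CPM at 20 µg/mL (log2 fold change 0.38 ± 0.061, adjusted p = 3.38e-05). KLF6, a zinc finger factor, was 90.8 to 96.0 CPM at 500 µg/mL and 76.2 to 82.2 CPM at 20 µg/mL. Of 33 apoptosis regulators, 8 (24.2%) were higher and 4 (12.1%) lower. PMAIP1, a BCL2 family killer protein, had 57.4, 59.1 and 61.2 CPM at 500 µg/mL and 41.9, 44.6 and 44.4 CPM at 20 µg/mL. Its log2 fold change was 0.44 ± 0.046 (adjusted p = 9.41e-09). The 4 lower ones became 2 to 4 when a library was left out.

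The 1 metallothionein gene called, MT2A, the most abundant metallothionein here and coding for a protein that binds zinc and copper, had 586, 630 and 647 CPM at 500 µg/mL, against 388, 382 and 420 CPM at 20 µg/mL. Its log2 fold change was 0.65 ± 0.073 (adjusted p = 2.2e-05). Of 21 metallothionein and metal transport genes 6 (28.6%) were higher and 0 lower. Of 41 genes of superoxide, peroxide and NRF2 target enzymes, 8 (19.5%) were higher and 3 (7.3%) lower, with a median of 0.02. AKR1B1, aldose reductase, had 288, 297 and 310 CPM at 500 µg/mL and 221, 222 and 229 CPM at 20 µg/mL (log2 fold change 0.41 ± 0.039, adjusted p = 7.59e-10). KYNU, an enzyme of tryptophan breakdown, had 4.24, 3.85 and 5.50 CPM at 500 µg/mL and 2.50, 3.21 and 2.38 CPM at 20 µg/mL, and NAMPT, which makes the precursor of NAD, had 447 to 470 CPM against 348 to 377 CPM. HMOX1, haem oxygenase, was not called, with 68.3, 67.5 and 60.9 CPM at 500 µg/mL and 60.6, 64.9 and 60.4 CPM at 20 µg/mL (adjusted p = 0.442); the doses overlapped.

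Selenoproteins carry selenocysteine, inserted at a UGA codon, and many of them reduce peroxides or disulphides. SELENOW, a small selenoprotein of muscle and brain, was among the 20 genes with the largest drop. It had 32.6, 31.8 and 36.4 CPM at 500 µg/mL, against 66.0, 59.1 and 62.9 CPM at 20 µg/mL, and its log2 fold change was -0.90 ± 0.047 (adjusted p = 3.89e-16). GPX1, the cytosolic glutathione peroxidase, had 123, 130 and 136 CPM at 500 µg/mL and 178, 170 and 186 CPM at 20 µg/mL. SELENOH, a nuclear selenoprotein, had 19.9, 19.6 and 20.3 CPM at 500 µg/mL and 27.7, 26.2 and 27.2 CPM at 20 µg/mL. Neither overlapped between doses, with log2 fold changes of -0.46 ± 0.061 and -0.44 ± 0.068 (adjusted p = 4.06e-05 and 2.53e-05). The family did not move as a block. Of 21 selenoprotein genes tested, 3 (14.3%) were lower, 3 (14.3%) were higher and 15 were not called, and the median was 0.03. The list was made after SELENOW had been seen. TXNRD1, thioredoxin reductase of the cytosol, was higher at 335, 334 and 338 CPM at 500 µg/mL, against 284, 291 and 293 CPM at 20 µg/mL (log2 fold change 0.21 ± 0.034, adjusted p = 3.87e-05). SELENOO, of mitochondria, and DIO2, which activates thyroid hormone, had log2 fold changes of 0.35 and 0.30; SELENOO lost its call without replicate 1 at 20 µg/mL (adjusted p = 0.0504), and DIO2 lost its call in 2 of 6 fits that left out a library (highest adjusted p = 0.0551).

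Several BMP targets were lower at the high dose. Of 27 tested BMP signalling and ID genes, 9 (33.3%) were lower, 2 (7.4%) were higher and 16 were not called. The list's median log2 fold change was -0.31. The 2 higher ones became 1 without replicate 1 or 3 at 500 µg/mL or replicate 2 at 20 µg/mL. ID2 had 8.82, 9.14 and 10.2 CPM at 500 µg/mL, against 21.5, 21.9 and 22.7 CPM at 20 µg/mL. ID3 had 84.8, 83.8 and 84.5 CPM at 500 µg/mL, against 144, 147 and 171 CPM at 20 µg/mL. ID1 had 150, 150 and 151 CPM at 500 µg/mL, against 235, 228 and 258 CPM at 20 µg/mL. All 3 were lower in each library at the high dose, with log2 fold changes of -1.22 ± 0.081, -0.87 ± 0.093 and -0.68 ± 0.069 (adjusted p = 1.53e-13, 1.82e-05 and 3.53e-06). SMAD6, an inhibitory SMAD that BMP signals induce, had 7.12, 8.19 and 6.36 CPM at 500 µg/mL and 11.99, 13.2 and 13.01 CPM at 20 µg/mL. ATOH8, a helix-loop-helix factor, had 9.62, 10.5 and 10.4 CPM at 500 µg/mL and 17.1, 21.1 and 17.7 CPM at 20 µg/mL. Their log2 fold changes were -0.83 ± 0.089 and -0.87 ± 0.098 (adjusted p = 1.99e-08 and 5.12e-07). GREM1, a secreted BMP antagonist, was higher, with 29.99, 28.7 and 27.4 CPM at 500 µg/mL and 20.8, 17.9 and 19.01 CPM at 20 µg/mL (log2 fold change 0.57 ± 0.072, adjusted p = 7.08e-07). BMP4, a ligand, was 7.67 to 9.26 CPM at 500 µg/mL and 9.91 to 10.9 CPM at 20 µg/mL, and its call held in 3 of 6 fits that left out a library (highest adjusted p = 0.148).

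The ID2 and SELENOW promoters are shown as 2 of the larger drops, in the same window and with the same capitals. The ID2 window is chr2:8681806-8682105 on the plus strand, with kappa B-like matches on the opposite strand 157, 117 and 63 bases before the start. The SELENOW window is chr19:47778453-47778752 on the plus strand, with GGCGCC 95 and 50 bases before the start. So a kappa B-like match stood in the window of a gene that was lower as well as in those of genes that were higher.
ID2: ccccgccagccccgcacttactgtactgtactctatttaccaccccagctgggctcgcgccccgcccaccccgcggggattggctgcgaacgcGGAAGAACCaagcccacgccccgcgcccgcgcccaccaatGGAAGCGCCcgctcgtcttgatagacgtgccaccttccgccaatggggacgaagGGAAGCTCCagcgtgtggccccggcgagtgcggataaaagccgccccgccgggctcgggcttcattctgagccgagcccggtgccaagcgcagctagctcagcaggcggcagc
SELENOW: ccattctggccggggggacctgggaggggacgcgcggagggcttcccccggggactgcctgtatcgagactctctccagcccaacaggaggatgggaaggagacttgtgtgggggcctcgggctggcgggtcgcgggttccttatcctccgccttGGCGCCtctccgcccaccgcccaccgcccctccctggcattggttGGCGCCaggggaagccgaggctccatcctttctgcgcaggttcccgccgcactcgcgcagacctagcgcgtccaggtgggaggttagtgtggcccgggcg

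Other genes with large drops were of varied kinds. SYTL5, a synaptotagmin-like protein of vesicle transport, had 19.1, 21.4 and 21.4 CPM at 500 µg/mL, against 35.1, 35.2 and 37.2 CPM at 20 µg/mL (log2 fold change -0.80 ± 0.056, adjusted p = 5.98e-13). RASA4, a GTPase activating protein of RAS with a near copy in the genome that can share reads, had 25.9, 25.1 and 25.0 CPM at 500 µg/mL and 39.3, 40.7 and 37.6 CPM at 20 µg/mL. UCA1, a long noncoding RNA first described in bladder cancer, had 3.29, 2.702 and 2.46 CPM at 500 µg/mL and 4.71, 5.03 and 5.22 CPM at 20 µg/mL. LFNG, a glycosyltransferase that modifies Notch receptors, was 2.38 to 2.85 CPM at 500 µg/mL and 3.71 to 4.62 CPM at 20 µg/mL. No library of one dose fell within the range of the other in any of these. That is no separate result, since the rule for the largest changes required it and only 5 of the 946 called genes overlapped. Of 27 homeobox genes tested, 5 (18.5%) were lower and 2 (7.4%) higher, with a median of -0.03. DLX2, a distal-less factor of forebrain, had 12.7, 12.8 and 13.9 CPM at 500 µg/mL and 16.7, 16.4 and 16.9 CPM at 20 µg/mL. Its log2 fold change was -0.34 ± 0.065 (adjusted p = 0.000638). The 5 became 3 without replicate 2 or 3 at 500 µg/mL or replicate 2 at 20 µg/mL, and the 2 became 0 without replicate 3 at 500 µg/mL or replicate 1 or 2 at 20 µg/mL and 1 without replicate 1 at 500 µg/mL or replicate 3 at 20 µg/mL.

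Of 24 contractile and YAP target genes, 6 (25.0%) were lower, 2 (8.3%), CCN1 and F3, were higher and 16 were not called. The median was -0.03. Of the 6, ACTA2, ANKRD1, CALD1 and TPM1 kept their calls in all 6 fits that left out a library, TAGLN in 2 (highest adjusted p = 0.149) and CNN2 in 0 (0.162). ANKRD1, an ankyrin repeat protein of stressed muscle, had 6.13, 7.03 and 6.17 CPM at 500 µg/mL and 9.70, 10.1 and 11.0 CPM at 20 µg/mL (log2 fold change -0.68 ± 0.086, adjusted p = 7.02e-07). CCN1, a matrix protein regarded like ANKRD1 as a YAP target, was 528 to 556 CPM at 500 µg/mL and 406 to 436 CPM at 20 µg/mL. COL1A2, a chain of type I collagen, had 1687, 1666 and 1616 CPM at 500 µg/mL and 1917, 1923 and 1920 CPM at 20 µg/mL (log2 fold change -0.21 ± 0.031, adjusted p = 7.92e-06). COL5A1 was 1662 to 1736 CPM at 500 µg/mL and 1952 to 2034 CPM at 20 µg/mL. Of 40 collagen and basement membrane genes, 5 (12.5%) were lower, 3 (7.5%) were higher and 32 were not called. The median was 0.01. Leaving out any one of the 6 libraries left 0 or 1 of the 3, and the 5 became 3 without replicate 2 or 3 at 500 µg/mL or replicate 1 or 2 at 20 µg/mL. TUBB3, a tubulin of neurons that tumour lines also express, had 75.3, 78.0 and 72.0 CPM at 500 µg/mL and 92.1, 93.5 and 97.2 CPM at 20 µg/mL (log2 fold change -0.33 ± 0.047). The summed neuron and oligodendrocyte list was 136 to 142 CPM at 500 µg/mL and 159 to 164 CPM at 20 µg/mL, with MOG and OLIG1 at 0, and its part in the results was not tested. Exons of TUBB3, TAP2, SELENOH and CFI, among others, overlap another annotated gene on the same strand. Those of SAMD11, ID2, LIF, FGF2, UCA1, ICAM1, IRF1, DUSP6 and NAMPT, among others, overlap a gene on the opposite strand. The counts of all these genes may hold reads of a neighbour.

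Of 40 hypoxia and glycolysis genes, 10 (25.0%) were lower and 2 (5.0%) higher, with a median of -0.07. The 2 became 1 without replicate 3 at 500 µg/mL or replicate 2 at 20 µg/mL. PFKFB3, which sets the level of a glycolysis activator, had 70.9, 71.5 and 70.2 CPM at 500 µg/mL and 84.1, 86.2 and 85.6 CPM at 20 µg/mL (log2 fold change -0.27 ± 0.044, adjusted p = 6e-05). LDHA, lactate dehydrogenase, and PGK1, phosphoglycerate kinase, had log2 fold changes of -0.17 and -0.15. PHGDH, the first enzyme of serine synthesis, had 28.4, 25.6 and 27.7 CPM at 500 µg/mL and 31.8, 32.8 and 34.6 CPM at 20 µg/mL (log2 fold change -0.28 ± 0.052, adjusted p = 0.000422). Of 38 mitosis and replication genes, 1 (2.6%, against 5.3% of all genes tested) was called, RRM2, which kept its call in 1 of 6 fits that left out a library (highest adjusted p = 0.231). Of 76 cytosolic ribosomal protein genes, 2 (2.6%, against 2.47% of all genes tested) were lower, and the median was -0.07. The count was 0 without replicate 3 and 5 without replicate 2 at 20 µg/mL, and 1 without replicate 1 at either dose. MKI67, the proliferation antigen, had 256, 254 and 258 CPM at 500 µg/mL and 259, 246 and 274 CPM at 20 µg/mL, with overlap (adjusted p = 0.894). CYP1A1, a target of the aryl hydrocarbon receptor, stood near 1 CPM at both doses and was not called (adjusted p = 0.91).

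The middle dose lay between the ends for most called genes but closer to the low one. Of the 505 higher genes, the mean at 100 µg/mL stood between those at 20 and 500 in 482, and on the far side of 20 in 23. Of the 441 lower genes, it stood between in 400 and on the far side of 20 in 41. At 100 µg/mL, the midpoint on the log dose scale, the median higher gene had made 33.0% of its log2 change and the median lower gene 23.1%. For changes of at least 1.5-fold, the medians were 37.3% for the 97 higher and 21.5% for the 56 lower genes. The counts and shares use the same libraries that chose the genes. That choice needs the libraries at 20 and 500 µg/mL to lie apart, which favours a mean in between. The counts were not made over all genes tested, and the difference between directions was not tested. Between 100 and 20 µg/mL, 29 genes (0.163%) were called, 26 higher (0.146%) and 3 lower (0.0168%) at 100 µg/mL. Between 500 and 100 µg/mL it was 445 genes (2.49%), 240 higher (1.35%) and 205 lower (1.15%) at 500 µg/mL. The first count fell to 15 without replicate 1 at 100 µg/mL, 17 without replicate 2 at 100 or replicate 3 at 20 µg/mL and 19 without replicate 2 at 20 µg/mL, and the second to 282 without replicate 2 at 500 µg/mL. C3 and ADAMTS1 were among the 26, with log2 fold changes of 0.35 and 0.24 for 100 over 20 µg/mL (adjusted p = 9.18e-06 and 0.0055), and KRT18 among the 3 lower ones, with -0.19 (0.00247).

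**Figure D3:**
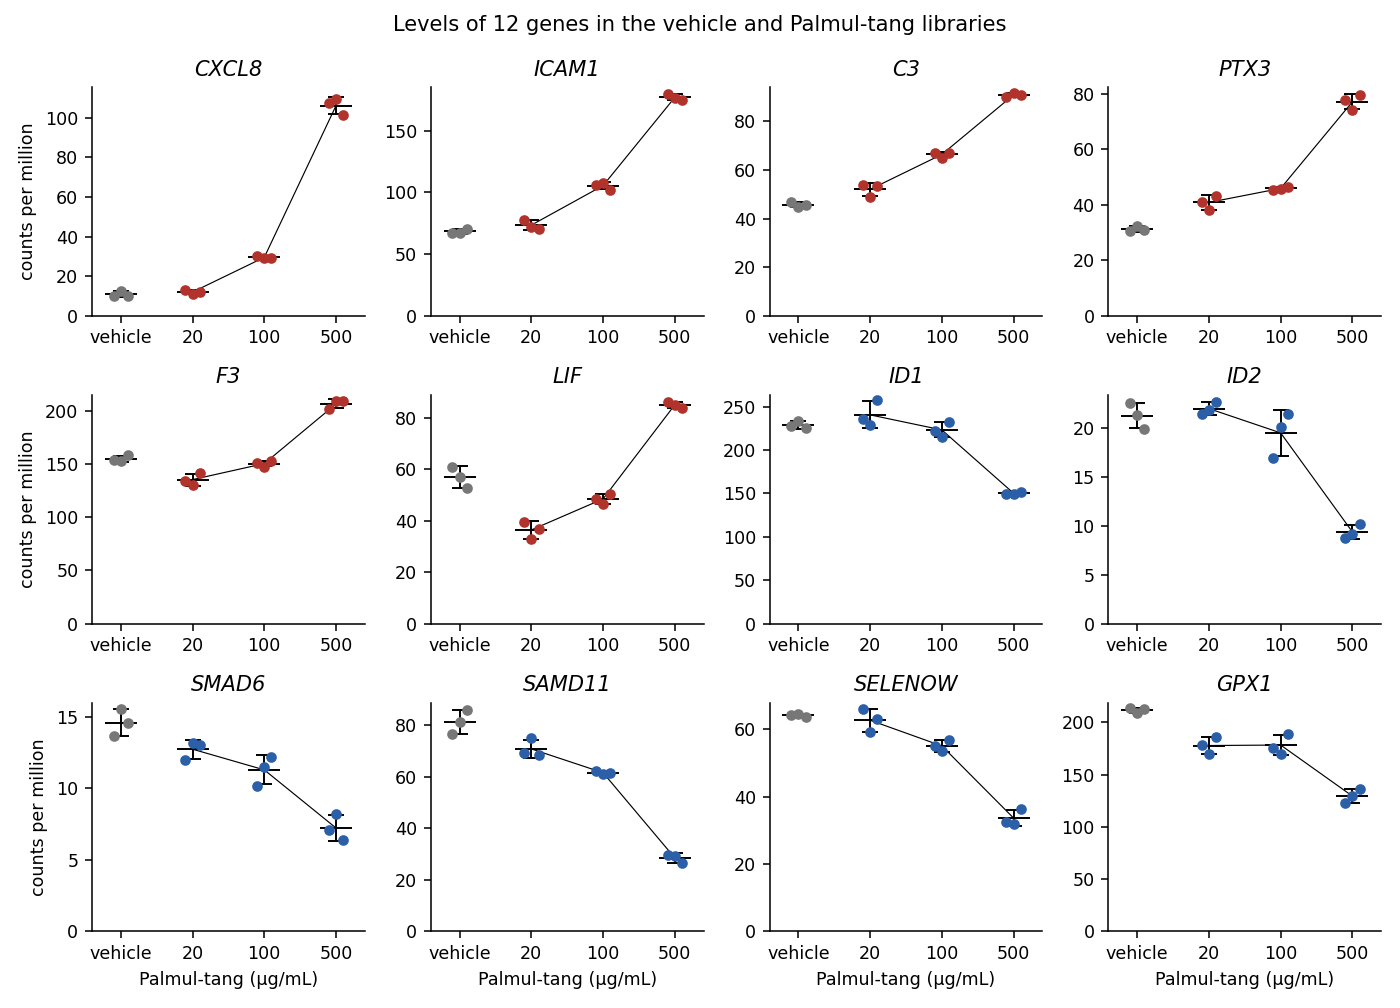
CPM of 12 genes in each library (points) of vehicle and of Palmul-tang at 20, 100 and 500 µg/mL (horizontal axis), with the mean and SD of 3 libraries; the line joins the dose means. Red genes were higher and blue genes lower at 500 than at 20 µg/mL; C3 averages 52.0, 66.4 and 90.9 CPM at 20, 100 and 500 µg/mL, whereas GPX1 averages 178, 178 and 129.5 CPM.

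Whether the upper step differed from the lower one was tested on the difference of the log2 changes, (500 over 100) minus (100 over 20). This called 14 genes (0.0785%), 6 with a positive (0.0336%) and 8 with a negative difference (0.0448%). In each of the 14 the log2 change was larger in size at the upper step. SAMD11, a gene of photoreceptors and other tissues whose nuclear protein has a SAM domain, had 68.4 to 75.0 CPM at 20 µg/mL, 61.1 to 62.1 CPM at 100 µg/mL and 26.4 to 29.6 CPM at 500 µg/mL. Its upper step was -1.12 and its lower step -0.20, a difference of -0.91 ± 0.086 (adjusted p = 4.38e-08). ID2 had 16.97, 20.2 and 21.5 CPM at 100 µg/mL and a difference of -0.87 ± 0.133 (adjusted p = 0.00125). PTX3 had 45.5, 45.7 and 46.6 CPM at 100 µg/mL and a difference of 0.58 ± 0.091 (adjusted p = 0.00134). TXNIP, an arrestin-like protein that restrains glucose uptake, had 8.72, 9.42 and 10.0 CPM at 20 µg/mL, 8.60, 9.20 and 9.73 CPM at 100 µg/mL and 16.5, 17.4 and 14.6 CPM at 500 µg/mL, a difference of 0.85 ± 0.146 (adjusted p = 0.00498). SELENOW had 54.95, 53.4 and 56.8 CPM at 100 µg/mL and a difference of -0.52 ± 0.080. Of the 10 genes the naming rule chose here, SAMD11 and PTX3 kept their calls in all 9 fits that left out a library; ID2 lost it without replicate 3 at 100 µg/mL (adjusted p = 0.0784), and TXNIP without replicate 1 or 2 at 100 µg/mL (0.126 and 0.0596). RGMB lost its call in 2 of the 9, RASA4 in 4, DLX2 in 5, ATOH8 in 6 and CLDN1 and SOD2 in 7 each, with highest adjusted p-values of 0.14, 0.214, 0.214, 0.227, 0.548 and 0.379. The count of 14 itself ran from 4 to 16, the lowest without replicate 3 at 100 µg/mL, with 5 without replicate 1 or 2 at that dose, 8 without replicate 1 and 9 without replicate 3 at 500 µg/mL.

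**Figure D4:**
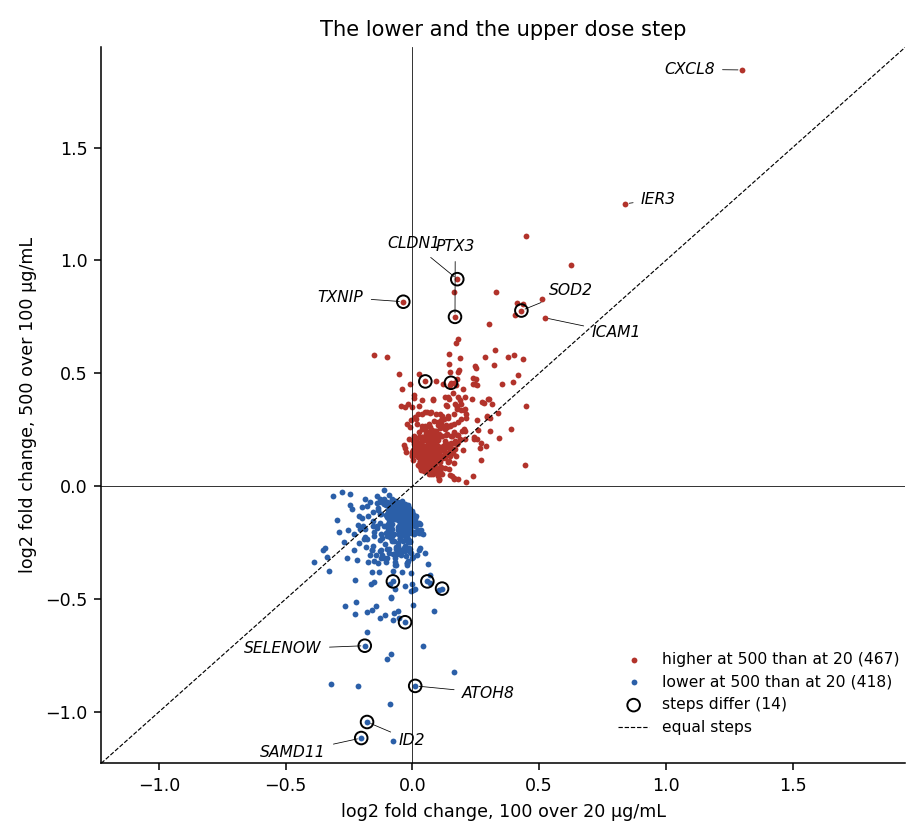
Log2 fold change of 500 over 100 µg/mL (vertical axis) against 100 over 20 µg/mL (horizontal axis) for called genes with a mean of at least 1 log2 CPM, 467 higher (red) and 418 lower (blue) at 500 than at 20 µg/mL; the dashed line marks equal steps and circles the 14 genes whose steps differ. SAMD11 is at -0.20 on the horizontal and -1.12 on the vertical axis, and PTX3 at 0.17 and 0.75.

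Vehicle did not sit at one place in the order. Its mean lay between those of 20 and 500 µg/mL for 256 of the 505 higher genes, on the far side of 20 for 184 and beyond 500 for 65. For the 441 lower genes these numbers were 188, 218 and 35. These genes too were chosen by the libraries at 20 and 500 µg/mL, which favours a place in between. PTX3 averaged 77.1 ± 2.76 CPM at 500 µg/mL, 40.9 ± 2.61 CPM at 20 µg/mL and 31.2 CPM in vehicle (SD, n = 3 each), so that vehicle was the lowest. LIF averaged 85.1 CPM at 500 µg/mL, 36.4 CPM at 20 µg/mL and 56.9 CPM in vehicle, which lay between. The vehicle libraries carry a sample code in the labels that no treated library has, so treatment and handling cannot be told apart there.

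The same contrast in Sibjeondaebo-tang, tested as a difference of dose changes, gave 0 genes different from Palmul-tang by edgeR's quasi-likelihood test and 0 by DESeq2, with 716 at an unadjusted p under 0.05. Without the filter on low counts, edgeR called 12, of which 1 was more positive and 11 more negative in Palmul-tang. CXCL8 averaged 120 ± 12.2 CPM at 500 µg/mL and 11.5 ± 1.22 CPM at 20 µg/mL of Sibjeondaebo-tang (SD, n = 3 each), and the dose change of Palmul-tang minus that of Sibjeondaebo-tang was -0.24 (95% interval -0.53 to 0.06). For ID2 it was -0.12 (-0.35 to 0.12), for C3 0.03 (-0.10 to 0.15) and for SELENOW -0.07 (-0.21 to 0.06). These intervals bound the differences and do not show that the formulas act alike.

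The comparison with Samul-tang was added after the data had been seen and has 1 Samul-tang library at each dose. The sample codes of Samul-tang start with a number that no Palmul-tang code starts with, so formula and handling cannot be told apart there. The spread of Samul-tang was not measured and is assumed to equal that of the replicated groups, so each p-value and interval of this comparison holds only under that assumption and compares those libraries. Under it, 63 genes (0.353%) were called. The dose change was more positive in Palmul-tang for 44 (0.247%) and more negative for 19 (0.107%). ICAM1 had 60.1 CPM at 500 µg/mL and 51.1 CPM at 20 µg/mL of Samul-tang, and its dose change was larger in Palmul-tang by 1.03 (95% interval 0.84 to 1.23, adjusted p = 1.66e-08). C3 had 44.0 CPM at 500 µg/mL and 42.4 CPM at 20 µg/mL of Samul-tang, a difference of 0.75 (0.57 to 0.94, adjusted p = 7.25e-06). PTX3, TNFAIP3, CFB and IRF1 were also among the 44. Other higher genes moved in Samul-tang too. LIF had 70.6 CPM at 500 µg/mL and 30.1 CPM at 20 µg/mL of Samul-tang, with a difference from Palmul-tang of -0.01 (-0.25 to 0.24). F3 had 203 and 124 CPM in those libraries, a difference of -0.10 (-0.25 to 0.05), and KRTAP2-3 had 8.03 and 2.97 CPM, a difference of -0.24 (-0.70 to 0.22).

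Among the lower genes, none of those named from the BMP and selenoprotein lists differed from Samul-tang past the threshold. ID2 had 11.3 CPM at 500 µg/mL and 22.3 CPM at 20 µg/mL of Samul-tang (difference -0.24, interval -0.58 to 0.09). ID1 had 167 and 258 CPM (difference -0.05, -0.34 to 0.24), and SMAD6 8.28 and 12.98 CPM (difference -0.18, -0.54 to 0.19). SELENOW had 37.0 and 63.3 CPM (difference -0.12, -0.31 to 0.07), and GPX1 115 and 164 CPM (difference 0.05, -0.21 to 0.31). SAMD11 had 31.0 and 76.1 CPM, close to its values in Palmul-tang. Over the 97 genes at least 1.5-fold higher in Palmul-tang, the median log2 ratio was 0.35 in Samul-tang and 0.86 in Palmul-tang, and 82 had the same sign. Over the 56 lower genes the medians were -0.56 and -0.80, with the same sign in 50. These genes were chosen by the Palmul-tang libraries, so the Palmul-tang medians are not independent of that choice.

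**Figure D5:**
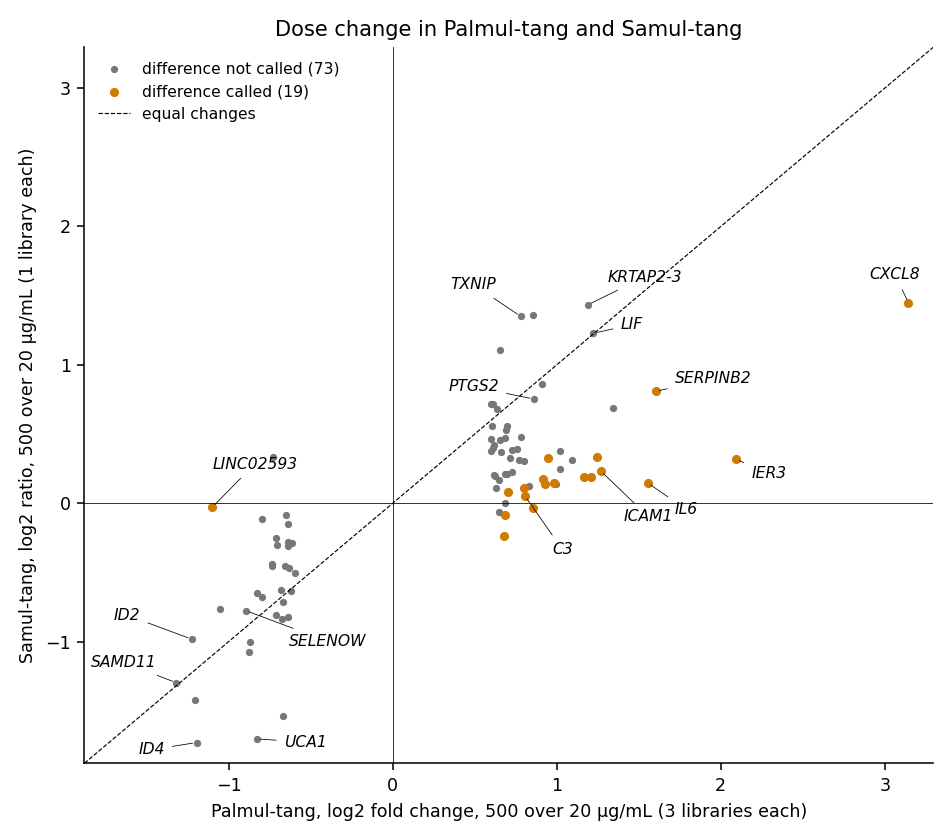
Log2 ratio of 500 over 20 µg/mL in Samul-tang (vertical axis, 1 library each) against the log2 fold change in Palmul-tang (horizontal axis, 3 libraries each) for 92 genes called and at least 1.5-fold changed in Palmul-tang, with a mean of at least 1 log2 CPM. Orange marks the 19 genes whose dose change differed between the formulas, among them ICAM1, C3 and PTX3; SAMD11, ID2 and SELENOW, not among the 19, lie closer to the dashed line of equal changes.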

How the data were processed

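RNA of SW1783 cells was sequenced, and the expected counts per gene deposited by the authors came, per the submitters' processing notes, from Trim Galore 0.6.5, STAR 2.7.3a and RSEM 1.3.3 on hg38, with FastQC 0.11.9 for quality. The annotation release and the strand setting of counting are not given in the sources used here, so overlapping genes may share reads. Of 279 columns, 30 matched the labels of this series and 249 per-sample columns were not used.

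Counts were rounded (24.0% of nonzero values were not whole), filtered with filterByExpr by group and scaled by TMM. CPM uses the scaled totals. The summed marker lists and the low marker levels given with them use unscaled totals instead. All 30 libraries, in 16 groups, entered 1 robust quasi-likelihood fit (edgeR 4.0.16, R 4.3.3), with Benjamini-Hochberg adjustment over 17839 genes and a threshold of 0.05. The script was tested on simulated data. The main fit did not pair libraries by replicate number. Between groups of Palmul-tang and Sibjeondaebo-tang, same-numbered libraries had deviations from their group means that correlated at -0.189 to 0.328. Whether they are partly paired was not tested. Alternatives were DESeq2 1.42.0, its size factors, no filter, the compared groups alone, a replicate block and leaving out each library.

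The comparison, gene lists and markers were chosen with earlier results of these data known. Named genes are the 20 largest non-overlapping changes each way with a mean of at least 1 log2 CPM. Their lack of overlap was thus fixed by this choice. Up to 4 called members per list by smallest p were added. So were the 5 largest each way in the test of unequal steps, and fixed markers. Chosen after values were seen were the Samul-tang test, the selenoprotein list and any further gene named, among them THBD, KLF6, BMP4, MMP2, S100A10, ANXA2, LDHA and PGK1. Promoters are from RefSeq (GRCh38.p14), matched by symbol. Counting precision follows from totals of 23.45 to 31.15 M counts per library. Some items are not reported here.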

Additional observations from a re-analysis of the deposited data

Results flagged for a closer look

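A test of the difference in dose change between Palmul-tang and Samul-tang called 63 genes. Samul-tang has 1 library at each dose, so its spread was not measured and is assumed to equal that of the replicated groups; the p-values hold only under that assumption. The 6 largest differences each way are given, chosen after the data were seen. More positive in Palmul-tang were IER3 (1.77 on the log2 scale, edgeR adjusted p = 0.0107), CXCL8 (1.7, adjusted p = 0.00619), IL6 (1.41, adjusted p = 7.8e-05), ICAM1 (1.03, adjusted p = 1.66e-08), SOD2 (1.02, adjusted p = 2.33e-09) and BIRC3 (0.97, adjusted p = 0.000577). More negative were LINC02593 (-1.07, adjusted p = 0.000677), SFRP2 (-0.83, adjusted p = 8.48e-06), EGR1 (-0.77, adjusted p = 0.00119), LINC00641 (-0.68, adjusted p = 0.0281), TUBB3 (-0.56, adjusted p = 0.000765) and ACTA2 (-0.51, adjusted p = 0.00019). SFRP2, a secreted Wnt antagonist, averaged 26.7 CPM at 500 µg/mL and 34.3 CPM at 20 µg/mL of Palmul-tang, and had 50.5 CPM at 500 µg/mL and 36.5 CPM at 20 µg/mL of Samul-tang, so the directions were opposite. EGR1, an immediate early factor, averaged 28.7 and 25.0 CPM in Palmul-tang at those doses and had 53.6 and 27.5 CPM in Samul-tang. Of the 12, LINC00641 lost its call without replicate 2 at 500 µg/mL (adjusted p = 0.0589), replicate 1 at 20 µg/mL (0.0814) or replicate 2 at 20 µg/mL (0.0502), and the other 11 kept theirs without any one Palmul-tang library. Leaving out a Samul-tang library was not possible. Formula and handling cannot be told apart here, as the sample codes of Samul-tang start with a number that no Palmul-tang code starts with. No cause was tested.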

How the results depend on the processing

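The 946 calls for Palmul-tang at 500 over 20 µg/mL stayed within 1.5 times in every alternative run, from 643 to 712 when a library was left out to 1379 with the compared groups alone; 750 were called by DESeq2 and 1036 with the replicate block, under which no count moved by over 1.5 times. Without a filter on low counts, the calls became 51 for 100 over 20 µg/mL (29 with it), 42 for unequal steps (14), 12 for Palmul-tang minus Sibjeondaebo-tang (0) and 106 for Palmul-tang minus Samul-tang (63). With the compared groups alone they became 22 for unequal steps and 107 for Palmul-tang minus Samul-tang. Leaving out each library gave 15 to 24 for 100 over 20 µg/mL, 282 to 332 for 500 over 100 µg/mL (445), 4 to 16 for unequal steps, 0 to 1 for Palmul-tang minus Sibjeondaebo-tang and 50 to 59 for Palmul-tang minus Samul-tang. The uncalled CYP1A1 ran from -0.08 to 0.381 and MKI67 from -0.059 to 0.022 on the log2 scale when a library was left out, changing sign. The cause was not tested. Genes near 1 CPM rest on few counts, and 3 libraries a dose limit the detection of small changes.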
